A study of Mus musculus with 35 samples.

Results

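The genes for the proteins of the cytosolic ribosome were followed in myeloid-derived suppressor cells (MDSC) and bulk tissue of pancreatic tumors. Members were the protein-coding mouse genes whose symbol is Rpl or Rps with a number and at most 1 of the letters a, x or l, or is Rplp0, Rplp1, Rplp2 or Rpsa. The rule found 80 genes among 53379 identifiers, of which 46 encode core proteins of the large (60S) subunit, 3 the P stalk of that subunit, and 31 the small (40S) subunit. Rpl3l, Rpl10l, Rpl39l and Rps27l are the 4 paralogs among them.

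T110299 cells, 1 line derived from a pancreatic tumor of a genetically engineered mouse (alleles including p53 fl/R172H and Ptf1a-Cre), were implanted into the pancreas of female C57BL/6 mice, so that all groups bore this tumor. Treated mice received 50 µg poly(I:C) complexed with polyethylenimine, called poly(I:C)c, intravenously on day 18 and day 20 after implantation. Per the study, MDSC were sorted on the day after the second dose. The control mice are called untreated here, as in their labels. The treatment protocol gives these controls glucose, whereas the study's account of the sequenced mice names no injection. Poly(I:C) mimics the double-stranded RNA of viruses. CD11b+ cells from spleen and tumor were sorted into PMN-MDSC (Ly6Clo Ly6G+, the granulocytic type) and M-MDSC (Ly6Chi Ly6G-, the monocytic type), and bulk tumor of untreated mice was lysed whole. Each group had 4 libraries, except treated PMN-MDSC from spleen with 3 and treated M-MDSC from tumor, where 1 of 4 libraries held 10 counts in all and was left out.

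A cytosolic ribosome carries 1 copy of nearly every ribosomal protein, so that cells make these proteins in matched amounts. Their mRNAs belong to the TOP class: they begin with a C followed by a run of pyrimidines, and the kinase mTORC1 governs through this run whether they are translated or stored. A change in the amount of these mRNAs is therefore not the same as a change in the synthesis of the proteins, which was not measured here. In the granulocytic lineage, ribosomal protein transcripts are abundant in dividing progenitors and scarce in mature neutrophils.

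The 30 MDSC libraries held 793070 to 4357105 counts and the bulk tumor libraries up to 8886115. Levels are given in CPM, counts divided by the library total and scaled to the same sum in every library, and 3 counts, the smallest level taken as detectable, came to 0.338 to 3.78 CPM over the libraries. The libraries are PCR products without molecular identifiers, so this floor covers counting error only. Libraries are given in the order of the deposited columns, which name the group but not the mouse. The libraries of a group came from separate mice, per the study. The sample titles share numbers across cell types, compartments and bulk tumor, so groups of the same treatment may hold material of the same mice, and all comparisons were fitted without pairing. In spleen the sorted cells held the markers of their labels: summed over 10 genes, PMN-MDSC markers reached 22674 to 41100 CPM in untreated PMN-MDSC and 4097 to 10326 CPM in untreated M-MDSC, and 8 M-MDSC markers summed to 702 to 2158 and 6419 to 9315 CPM. The untreated PMN-MDSC libraries from tumor went partly against their label. Their PMN-MDSC markers summed to 1069 to 4521 CPM, their M-MDSC markers to 4547 to 8789.6 CPM and 8 macrophage markers to 10058 to 13531 CPM, against 533 to 1750.4 CPM in PMN-MDSC from spleen. Ly6g, the gene of the antigen sorted for, stood at 0 to 9.19 CPM in tumor and 34.5 to 84.7 CPM in spleen of untreated mice. Macrophage markers were high in treated tumor libraries too. In PMN-MDSC they summed to 7647 to 19080 CPM, beside 4091 to 10333 CPM of PMN-MDSC markers. In M-MDSC they summed to 5289 to 29336 CPM, beside 2889 to 5202 CPM of M-MDSC markers. All libraries are called by their label.

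Many ribosomal protein genes have processed copies elsewhere in the genome whose sequence is nearly the same, and a read can be counted on either. Rows of at least 90% identity to a member over at least 50% of its coding length numbered 931, of which 852 held counts, and 74 members had at least 1. These rows held 67.8 to 90.1 counts for every 100 counts of members in a library, so a member's value depends on how reads were shared out. On the same strand, 27 members shared exon bases with another gene, with the largest shares for Rpl24 (47.0%, with Gm28037), Rpl13a (29.4%, with Gm45713) and Rps10 (20.6%, with RPS10-NUDT3), whose values are uncertain for that reason too. The ratio differed between members: for every 100 counts of the member, the copies held 522 counts for Rpl5, 487 for Rpl11, 441 for Rps28, 329 for Rpl12, 249 for Rpl10a and 168 for Rpl3, but 62.4 for Rps26, 27.8 for Rps18, 21.8 for Rpsa, 2.99 for Rps9 and 0 for Rpl8. Adding the copies' counts to the member, a step chosen after seeing the data, changed calls in 9 of the 14 comparisons and interactions and turned the sign of some values that did not pass. For tumor against spleen in PMN-MDSC it kept 57 of 57 calls and gained 8, and for PMN-MDSC against M-MDSC of spleen it kept 70 of 70 and gained 4. As an alternative, only rows named as pseudogenes of a member were added, called copies by name here.

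The TOP class is defined at the first bases of the mRNA, so 30 bases around the annotated start, 15 on each side, are shown for 13 of the members named below. They were read 5′ to 3′ from RefSeq (GRCm38.p6), and capitals mark a pyrimidine tract, defined as a C followed by at least 4 C or T and beginning within 5 bases of the annotated start.
Rpl5 (chr5:107900513-107900542, plus strand): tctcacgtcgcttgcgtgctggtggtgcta
Rpl11 (chr4:136053379-136053408, minus strand): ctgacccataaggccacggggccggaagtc
Rps26 (chr10:128626492-128626521, minus strand): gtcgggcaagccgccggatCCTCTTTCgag
Rpl15 (chr14:18270972-18271001, minus strand): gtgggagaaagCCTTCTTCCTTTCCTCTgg
Rps18 (chr17:33955651-33955680, minus strand): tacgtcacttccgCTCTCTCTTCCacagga
Rpl10a (chr17:28328456-28328485, plus strand): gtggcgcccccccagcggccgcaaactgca
Rps9 (chr7:3704026-3704055, plus strand): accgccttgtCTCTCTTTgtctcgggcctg
Rps27 (chr3:90213634-90213663, minus strand): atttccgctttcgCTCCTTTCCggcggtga
Rpsa (chr9:120127751-120127780, plus strand): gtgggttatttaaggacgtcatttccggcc
Rpl12 (chr2:32961697-32961726, plus strand): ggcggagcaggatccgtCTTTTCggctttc
Rpl22 (chr4:152325711-152325740, plus strand): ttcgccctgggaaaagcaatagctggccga
Rps15 (chr10:80292416-80292445, plus strand): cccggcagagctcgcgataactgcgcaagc
Rps28 (chr17:33824548-33824577, minus strand): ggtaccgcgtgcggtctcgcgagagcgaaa
Among these 13, the tract stood in Rps26, Rpl15, Rps18, Rps9, Rps27 and Rpl12. A window was found for 60 of 80 members, and Rpl3 and Rpl8 are among those without one. Of the 60 windows, 27 (45%) held the tract, against 18.5% of 27025 windows of all genes. The tracts were 5 to 20 bases long with a median of 8, and 2 of them began exactly at the annotated start. The absence of a tract means only that these letters are not in the window. CGGAAG, searched on both strands of the 300 bases from 250 before to 50 after the start, was present in 41 of the 60 windows (68.3%) and in 17.2% of all windows. TATAAA, searched on both strands, was present in 5 (8.33%) and in 14.2%.

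Compared per length, as CPM divided by exon length in kilobases (FPKM), the members differed widely. Over the 30 MDSC libraries, the highest mean levels belonged to Rplp1 (627 FPKM) and Rplp0 (459), proteins of the P stalk that recruits elongation factors. Rpl8 (277), which lines the catalytic centre, and Rpl29 (242) were also among the 5 highest. The lowest were Rpl10l (0.0411 FPKM), Rpl39l (0.0435) and Rpl3l (0.613), paralogs known from germ cells or muscle. Rpl10l held 3 counts, Rpl39l 4 and Rpl3l 81 over all 34 libraries together, and none of the 3 reached the depth needed for a test. Among the members in general use, Rpl35a (4.73 FPKM) and Rpl13a (5.31) were lowest. The summed CPM of the 49 large subunit members, stalk included, was 1.24 to 1.69 times that of the 31 small subunit members over the MDSC libraries.

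**Figure D1:**
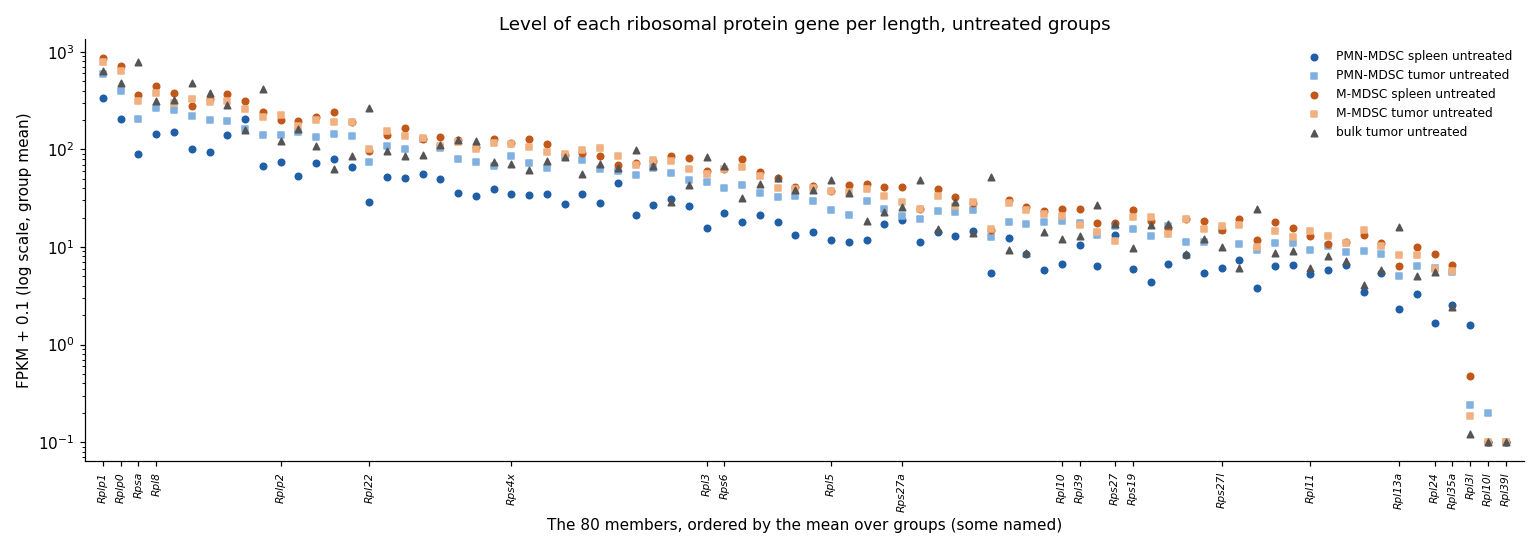
FPKM + 0.1 on a log axis (group mean) of each of the 80 members in the 5 untreated groups, ordered by the mean over groups. Names are given for the ends of the order and for members of known roles. Rplp1 and Rplp0 stand at the left and Rpl10l and Rpl39l at the right end, and the splenic PMN-MDSC points lie below those of splenic M-MDSC for nearly all members.

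The module level, the mean of log2(CPM + 1) over the 80 members in a library, separated splenic PMN-MDSC from the other groups. It was 6.43 ± 0.06 (SD, n = 4) in untreated M-MDSC from spleen, 6.28 ± 0.16 in untreated M-MDSC from tumor and 5.91 ± 0.15 in untreated PMN-MDSC from tumor. Untreated PMN-MDSC from spleen stood at 4.99 ± 0.22, with libraries at 5.28, 5.03, 4.79 and 4.85. Bulk tumor stood at 5.96 ± 0.33, between the 2 MDSC types from tumor and with a spread (5.55 to 6.35) that overlapped both.

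After poly(I:C)c the module level was 6.23 ± 0.22 (SD, n = 4) in M-MDSC from spleen, 6.20 ± 0.15 (n = 3) in M-MDSC from tumor and 5.76 ± 0.32 (n = 4) in PMN-MDSC from tumor. All 3 groups overlapped with their untreated counterparts. In PMN-MDSC from spleen it was 4.35 ± 0.33 (n = 3), and the treated libraries, at 4.62, 3.98 and 4.46, all lay below the 4 untreated ones. Ordered by mean, the neighbouring groups overlapped except at 3 steps. These lay between untreated M-MDSC of spleen and of tumor, between treated PMN-MDSC from tumor and untreated PMN-MDSC from spleen, and between the latter and treated PMN-MDSC from spleen. These values rest on library totals. With TMM factors, which discount genes that dominate a library, the mean level was 5.26 in untreated and 4.83 in treated PMN-MDSC from spleen.

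**Figure D2:**
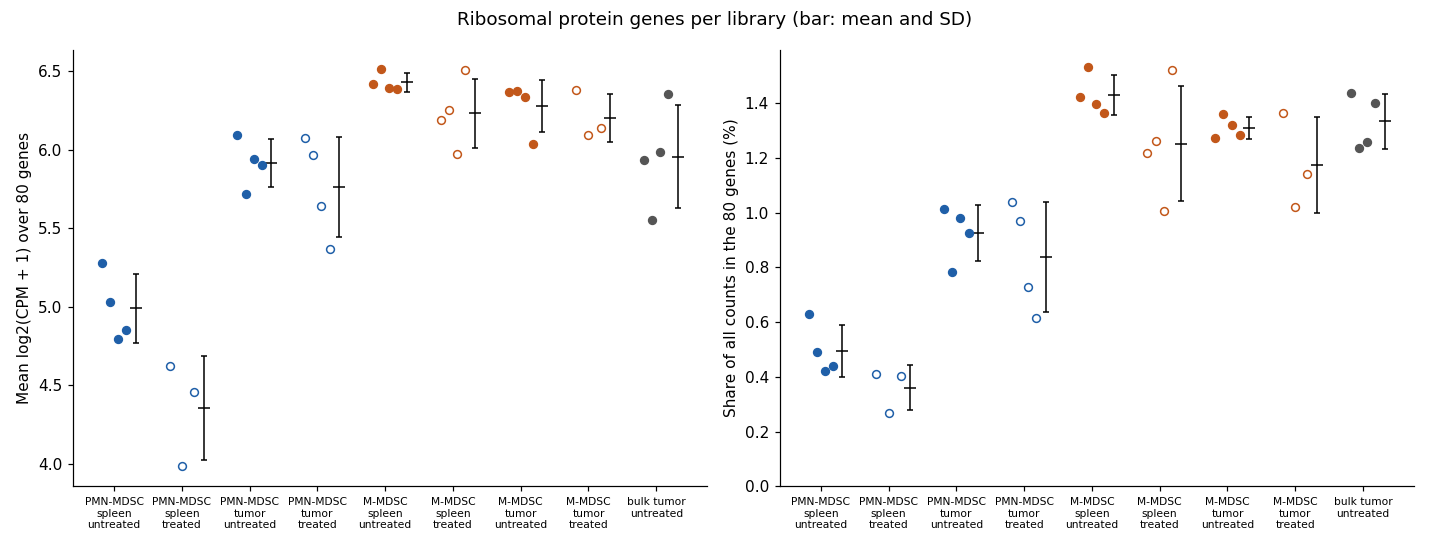
Left, the mean log2(CPM + 1) over the 80 members in each library, and right, their share of all counts in percent, by group (points are libraries, filled for untreated and open for treated, with the mean and SD beside them). The PMN-MDSC groups from spleen lie lowest in both panels, at 4.79 to 5.28 untreated and 3.98 to 4.62 treated on the left.

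As a share of all counts, the members took 0.495 ± 0.0949% (SD, n = 4) in untreated PMN-MDSC from spleen, with 0.629, 0.491, 0.420 and 0.438% in the libraries, and 0.361 ± 0.0820% after treatment, with 0.412, 0.266 and 0.404%. The 3 treated libraries were again below the 4 untreated ones, by a small margin. In M-MDSC from spleen the share was 1.43 ± 0.0729% untreated and 1.25 ± 0.211% treated. In tumor it was 0.926 ± 0.102% and 0.837 ± 0.200% in PMN-MDSC, and 1.31 ± 0.0397% and 1.18 ± 0.175% in M-MDSC. Bulk tumor held 1.33 ± 0.102%. The shares are set by the abundance of every other transcript as well. In bulk tumor and in sorted cells alike, fewer cells of a type and less RNA per cell cannot be told apart.

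Genes were then compared one at a time with edgeR's quasi-likelihood F-test on TMM-scaled counts, adjusted over all genes tested by the Benjamini-Hochberg method, and called at an adjusted p under 0.05. Of the 10 comparisons between groups, the largest share of members was called between the 2 MDSC types in the spleen of untreated mice, where almost the whole set was lower in PMN-MDSC. Of 75 members tested, 70 (93.3%) were lower in PMN-MDSC than in M-MDSC and 0 higher, where 33.4% of the 8579 genes tested were lower and 30.9% higher. The median log2 difference of the members was -1.16 and that of all genes -0.08. All 75 had a negative difference, between -1.74 and -0.05. Genes entered on their mean count over both groups, and 6 of the 75, all of them called, averaged under 25 counts in PMN-MDSC and entered only through M-MDSC, where they were higher: Rps29, Rpl38, Rps28, Rpl31, Rpl13a and Rpl36a. The other 64 calls were among 69 members. Most members of each subunit were lower, with 26 of 30 small subunit members (median -1.23), 41 of 42 large subunit members (-1.13) and 3 of 3 stalk members (-1.04). Whether the subunits differed here was not tested.

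Rps18, a protein of the small subunit's head, had the lowest value. It held 59.2, 45.8, 35.6 and 37.2 CPM in the PMN-MDSC and 221, 205, 185 and 160.4 CPM in the M-MDSC libraries, which do not overlap (log2 difference -1.74 ± 0.19 (SE), adjusted p = 4.98e-05). Rpl10a, of the mobile L1 stalk, stood at -1.69 ± 0.21 (adjusted p = 0.000102). Rps29, a zinc-binding protein of the small subunit (chr12:69157722-69159186, minus strand), stood at -1.70 ± 0.31 with a mean of 11 counts in PMN-MDSC, a value given as a description, since the gene entered through M-MDSC alone. Rpsa, a small subunit protein also described as a laminin receptor, was lower by a similar amount (-1.66 ± 0.21, adjusted p = 0.000131). So was Rps19 (-1.64 ± 0.25, adjusted p = 0.000372), whose human gene is mutated in Diamond-Blackfan anemia.

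The 3 stalk genes were lower in splenic PMN-MDSC with log2 differences of -1.43 ± 0.23 for Rplp0, -1.04 ± 0.20 for Rplp2 and -0.99 ± 0.23 for Rplp1. Rps6, the substrate of the S6 kinases, was lower (-1.10 ± 0.17, adjusted p = 0.000408), as was Rpl10, which joins the large subunit late in assembly (-1.50 ± 0.25, adjusted p = 0.000660). Rpl22 (-1.36), Rps4x (-1.37), Rpl39 (-0.89) and Rps27a (-0.77), which is made as a fusion with ubiquitin, were lower as well.

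The 5 members tested that did not pass were Rps27, Rps9, Rpl37, Rps13 (-0.43) and Rps12 (-0.50), the last 2 named after their values were seen. Rps27 held 11.1, 16.9, 12.9 and 14.1 CPM in PMN-MDSC and 20.04, 18.6, 19.04 and 16.2 CPM in M-MDSC, with only 1 PMN-MDSC library inside the range of the other group. Scaled by TMM its log2 difference was -0.05 ± 0.21 (adjusted p = 0.846), which turned positive, at 0.08 or less, with DESeq2, RLE factors, 1 fit over all MDSC groups or 1 of 3 single libraries left out. Rps9, an early-binding protein of the small subunit, held 413, 641, 493 and 539.8 CPM and 733, 848, 745 and 843 CPM (log2 difference -0.22 ± 0.17, adjusted p = 0.279), and Rpl37 stood at -0.24 ± 0.18 (adjusted p = 0.257). With library totals in place of TMM, both Rps9 (-0.60, adjusted p = 0.00472) and Rpl37 (-0.61, adjusted p = 0.0184) passed, and the median of the members became -1.53. PMN-MDSC markers (10 of 10 higher) and M-MDSC markers (8 of 8 lower) moved with this result, as did macrophage markers (6 of 8 higher), erythroid markers (3 of 3 higher), immature granulocyte markers (4 of 6 lower, 1 higher), B cell markers (2 of 4 higher) and cell cycle genes (8 of 10 lower in PMN-MDSC). The 1 epithelial tumor marker and the 1 fibroblast and endothelial marker tested were higher, and T and NK cell markers, at 11.5 to 17.3 CPM in PMN-MDSC and 4.18 to 9.93 CPM in M-MDSC, were too sparse for a test. Mitochondrial genes took 2.63 to 5.27% of counts in PMN-MDSC and 7.71 to 9.25% in M-MDSC, without overlap. The part of these in the result was not tested.

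In tumors of untreated mice, fewer members passed between the 2 MDSC types, and whether the compartments differ in this was not tested. Of 75 members tested, 13 (17.3%) were lower in PMN-MDSC than in M-MDSC and 0 higher, against 5.73% lower and 7.25% higher among 7623 genes. The median of the members was -0.39 and that of all genes -0.01. The lowest values were those of Rps23, at the decoding centre (-0.75 ± 0.20, adjusted p = 0.0250), Rpl13 (-0.75 ± 0.21, adjusted p = 0.0311) and Rpl7a (-0.74 ± 0.23, adjusted p = 0.0471). Rplp0, Rplp2, Rpsa and Rps6 were among the 13, with log2 differences of -0.65, -0.65, -0.60 and -0.59. The highest were Rps27 (0.49), Rpl21 (0.29) and Rpl39 (0.10), none of which passed. Rpl21 turned to -0.11 with the copies added by sequence and to -0.05 with those added by name, and Rpl39 to -0.06 without PMN-MDSC replicate 1 and -0.04 without M-MDSC replicate 2.

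Rpsa held 641, 481, 757 and 688 CPM in the tumor PMN-MDSC and 846, 918, 1051 and 1195 CPM in the M-MDSC libraries, so that the groups did not overlap. The count of 13 rests on single libraries: it was 2, 3 and 4 without PMN-MDSC replicate 2, 3 and 4, 7, 4 and 5 without M-MDSC replicate 1, 2 and 3, and 23 without M-MDSC replicate 4, the smallest library. With copies added 10 of the 13 calls were kept, 3 were lost, Rpl13 (adjusted p = 0.0578) among them, and 5 were gained. Macrophage markers (6 of 7 higher in PMN-MDSC), PMN-MDSC markers (4 of 9 higher) and M-MDSC markers (4 of 8 lower, 1 higher) moved with this comparison, as did 1 of 2 immature granulocyte markers (lower) and the 1 platelet, 1 T and NK cell and 1 fibroblast and endothelial marker tested (higher). Dendritic cell markers, not tested, summed to 27.03 to 34.7 CPM in PMN-MDSC and 5.04 to 14.8 CPM in M-MDSC. Their part in it was not tested.

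Between compartments, PMN-MDSC from tumor held more of these transcripts than PMN-MDSC from spleen. In untreated mice, 57 of 71 members tested (80.3%) were higher in tumor and 0 lower, where 29.4% of 7971 genes were higher and 29.7% lower. The median log2 difference of the members was 0.87, that of all genes 0.01, and 70 of 71 were positive. Of the small subunit 21 of 28 members were higher (median 0.76), of the large subunit 33 of 40 (0.91) and of the stalk 3 of 3 (0.78). The 4 splenic libraries are the same as in the comparison of MDSC types, so the results are not independent of each other. Of the 57, Rpl38 and Rpl36a averaged under 25 counts in spleen and entered only through tumor, where they were higher.

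Rpl3, which lies beside the catalytic centre of the large subunit (chr15:80077791-80091868, minus strand), held 73.2, 45.3, 35.9 and 41.4 CPM in the splenic and 159.5, 160.4, 142 and 132 CPM in the tumor libraries (log2 difference 1.47 ± 0.22, adjusted p = 0.000255). Rps26, at the mRNA exit channel of the small subunit, held 49.1, 43.8, 37.9 and 37.6 CPM and 161, 139, 115 and 97.2 CPM (1.47 ± 0.21, adjusted p = 0.000184). For both genes every tumor library was above every splenic one. Rpl10a was higher by 1.43 ± 0.25 (adjusted p = 0.000804). Rps18 was higher too, at 123, 90.5, 104 and 107 CPM in tumor (1.12 ± 0.20, adjusted p = 0.000822).

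Members with known roles in assembly or outside the ribosome were also higher in tumor PMN-MDSC, with log2 differences of 1.32 ± 0.22 for Rpl10, 1.24 ± 0.28 for Rpl22, 1.22 ± 0.27 for Rps19, 1.17 ± 0.25 for Rps4x, 1.06 ± 0.23 for Rpsa and 0.71 ± 0.20 for Rps6. The stalk genes were higher by 0.81 ± 0.24 (Rplp0), 0.78 ± 0.21 (Rplp2) and 0.70 ± 0.24 (Rplp1). Rps9 was the 1 member with a negative difference (-0.51 ± 0.23, adjusted p = 0.0765), with 435, 289, 473 and 438 CPM in tumor. It passed as lower when no filter on low counts was used (adjusted p = 0.0265). Rps27a (0.03, negative without the filter and with 1 of 4 single libraries left out) and Rps27 (0.17) came next, and Rpl39 (0.63, adjusted p = 0.109) did not pass either. The 9 members that were not tested for want of counts included Rpl13a, Rps27l, Rps28 and Rps29. PMN-MDSC markers (10 of 10 lower in tumor, median -4.02), macrophage markers (6 of 8 higher, 1 lower, 2.89) and M-MDSC markers (6 of 8 higher, 1 lower) moved with this difference. So did immature granulocyte markers (3 of 3 lower), erythroid markers (2 of 2 lower, -6.83), cell cycle genes (3 of 6 higher, 0.83) and epithelial tumor markers (4 of 5 higher, 1 lower), which summed to 129 to 782 CPM in tumor and 16.3 to 33.4 CPM in spleen. The 1 B cell marker tested was lower, and the 1 platelet and 1 T and NK cell marker tested were higher. Mitochondrial genes took 7.17 to 15.3% of counts in tumor, above the range in spleen. The part of these in the difference was not tested.

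In M-MDSC the compartments were close. Of 76 members tested in untreated mice, 1 was higher in tumor (1.32%) and 0 lower, against 15.7% higher and 12.7% lower among 8298 genes. That member was Rpl10a (0.40 ± 0.13, adjusted p = 0.0422). With library totals 0 members were higher and 1, Rps27a, was lower (-0.49, adjusted p = 0.0277), although its value of -0.23 with TMM turned to 0.05 with the copies added by sequence and to 0.16 with those added by name. Rpl10a did not pass with the copies' counts added, where 2 other members did, nor in the fit over all MDSC groups, nor without splenic replicate 1, 3 or 4 or tumor replicate 1. The median of the members was 0.13, that of all genes 0.02, and with library totals it was -0.12, beside a median of -0.24 over all genes. The highest values were those of Rpl13a (0.57 ± 0.23, adjusted p = 0.0824), Rpl37 (0.54) and Rpl6 (0.53), and the lowest those of Rps27 (-0.29), Rpl39 (-0.27) and Rps27a (-0.23). Rpl6 and Rpl37 passed when no filter on low counts was used. Macrophage markers (6 of 7), M-MDSC markers (2 of 8) and epithelial tumor markers (3 of 3) were higher in tumor here too, and PMN-MDSC markers (6 of 7), immature granulocyte markers (3 of 6), cell cycle genes (7 of 9) and the 1 B cell and 1 erythroid marker tested lower, and their part was not tested.

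**Figure D3:**
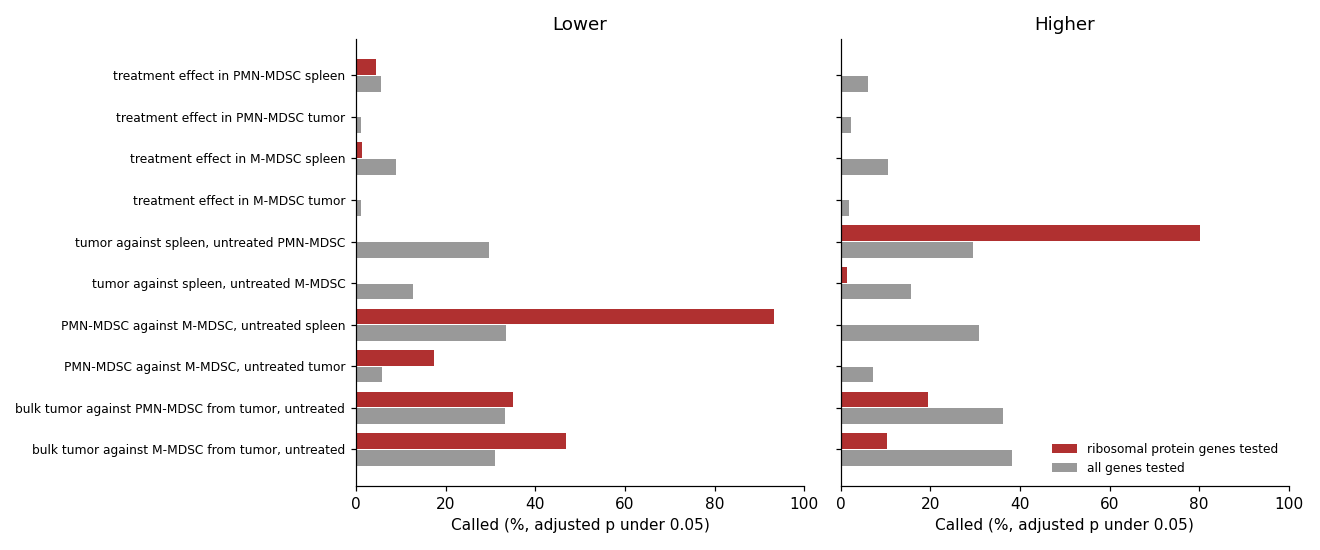
Percent of the ribosomal protein genes tested (red) and of all genes tested (grey) called lower (left) or higher (right) at an adjusted p under 0.05 in the 10 comparisons. The red bars are longest for PMN-MDSC against M-MDSC of spleen, with 93.3% lower, and for tumor against spleen in PMN-MDSC, with 80.3% higher.

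The treatment question was whether poly(I:C)c altered the transcript levels of these genes in either cell type. In PMN-MDSC from spleen, 3 of 67 members tested (4.48%) were lower after treatment and 0 higher, where 5.52% of 7261 genes were lower and 6.1% higher. The share of members called is thus near that of all genes. The median of the members was -0.37, against 0.01 over all genes, and 53 of 67 had a negative difference. That median was -0.14 without treated replicate 2, -0.21 without untreated replicate 1 and -0.53 without treated replicate 1, and -0.65 with library totals, beside -0.28 over all genes.

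The 3 were Rps26, Rpl8 and Rpl5. Rps26 fell from 49.1, 43.8, 37.9 and 37.6 CPM to 18.6, 10.4 and 18.00 CPM (log2 fold change -1.15 ± 0.26, adjusted p = 0.0254). Rpl8 (chr15:76904078-76906314, plus strand) fell from 223, 203, 168 and 182 CPM to 96.7, 52.7 and 73.8 CPM (-1.10 ± 0.24, adjusted p = 0.0214). Rpl5, which forms a particle with Rpl11 and the 5S RNA that also binds Mdm2, fell from 58.4, 47.8, 37.3 and 39.2 CPM to 23.1, 16.3 and 14.8 CPM (-1.06 ± 0.26, adjusted p = 0.0355). In each of the 3 the highest treated library was below the lowest untreated one. With the counts of the copies added, Rpl5 no longer passed (-1.10, adjusted p = 0.0772), while Rps26 (-1.21, adjusted p = 0.0161) and Rpl8 (-1.11, adjusted p = 0.0211) did, and 1 call was gained.

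Rpl11 went from 15.9, 13.4, 11.5 and 14.4 CPM to 5.76, 3.71 and 6.12 CPM without overlap but did not pass (-1.13 ± 0.31, adjusted p = 0.0510). The lowest values of all belonged to Rpl15, with 11.4, 19.4, 15.6 and 16.1 CPM untreated and 9.61, 1.86 and 2.16 CPM treated (-1.62 ± 0.57, adjusted p = 0.106), and Rpl3, with 23.7, 5.94 and 14.04 CPM treated (-1.51 ± 0.44, adjusted p = 0.0604). In both genes treated replicate 1 stood well above the other treated libraries. Rpl15 passed with DESeq2 (adjusted p = 0.0376) and Rpl3 as well (adjusted p = 0.00897). The highest values were those of Rps24 (0.42 ± 0.26), Rplp0 (0.33 ± 0.29) and Rpl19 (0.31 ± 0.28), none of which passed. Rpl15 averaged 8.67 and Rpl11 12 counts in the treated libraries, and 12 of the 67 members tested averaged under 25 there, 0 of them called. Rpsa (0.06), Rps19 (0.15), Rps27a (0.06), Rplp1 (-0.38), Rplp2 (-0.15), Rps6 (-0.44), Rps27 (-0.67), Rps4x (-0.59), Rpl22 (-0.62), Rpl39 (-0.71) and Rpl10 (-0.93) did not pass.

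The count of 3 was 0 without untreated replicate 1 or 4 or treated replicate 2 or 3, 2 without untreated replicate 2, and 6 without treated replicate 1. It was 8 with DESeq2, 7 without the filter on low counts, 9 with library totals and 15 in 1 fit over all MDSC groups. Macrophage markers moved with the treatment (7 of 8 lower), summing to 533 to 1750.4 CPM in untreated and 75.96 to 217 CPM in treated libraries. So did erythroid markers (3 of 3 lower), at 67.4 to 207 CPM and 0.360 to 7.68 CPM, and PMN-MDSC markers (4 of 10 higher), at 22674 to 41100 CPM and 31525 to 72642 CPM. M-MDSC markers (4 of 6 lower, 1 higher, median -3.36) summed to 702 to 2158 CPM and 776 to 1193 CPM. B cell markers (0 of 3 called) went from 138 to 218 CPM to 71.1 to 127 CPM, and epithelial tumor markers (0 of 1 called) from 16.3 to 33.4 CPM to 2.52 to 9.28 CPM. Dendritic cell markers went from 22.9 to 38.2 CPM to 1.44 to 5.57 CPM and T and NK cell markers from 11.5 to 17.3 CPM to 2.52 to 5.57 CPM, both too sparse for a test, and none of these 4 lists overlapped between the groups. Mitochondrial genes took 2.63 to 5.27% of counts in untreated and 5.31 to 5.92% in treated libraries, without overlap. The part of these in the result was not tested.

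In PMN-MDSC from tumor, 0 of 76 members passed in either direction with edgeR, against 2.29% higher and 1.07% lower among 8308 genes. At an unadjusted p under 0.05 there were 3 members, and DESeq2 called 1, Rps26, as lower. The median was -0.18, that of all genes 0.01, and 67 of 76 values were negative. With 1 library left out the median was -0.27 to -0.094, the latter without treated replicate 4, and -0.11 without untreated replicate 1. Rps26 held 161, 139, 115 and 97.2 CPM untreated and 95.6, 101, 77.1 and 61.2 CPM treated, with overlap (-0.65 ± 0.19, adjusted p = 0.102). Rpl3 (-0.54) and Rps29 (-0.41) were next lowest, and Rpl37a (0.16), Rpl7a (0.13) and Rps20 (0.10) highest. With the copies added by sequence Rpl37a turned to -0.11 and Rpl7a to -0.08, and Rpl7a was also negative with those added by name and without treated replicate 2. PMN-MDSC markers summed to 1069 to 4521 CPM in untreated and 4091 to 10333 CPM in treated libraries (0 of 10 called), and M-MDSC markers (2 of 8 higher, 2 lower) to 4547 to 8789.6 CPM and 1364 to 3197 CPM, without overlap. Macrophage markers summed to 10058 to 13531 CPM untreated and 7647 to 19080 CPM treated, with overlap. Epithelial tumor markers (1 of 4 lower) summed to 129 to 782 CPM and 71.1 to 197 CPM. Immature granulocyte markers (0 of 1 called) went from 43.6 to 131 CPM to 135 to 1105 CPM, B cell markers (0 of 1 called) from 50.3 to 98.6 CPM to 15.9 to 48.2 CPM and dendritic cell markers, not tested, from 27.03 to 34.7 CPM to 4.74 to 17.3 CPM, all without overlap. The part of these was not tested.

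In M-MDSC from spleen, 1 of 76 members (1.32%) was lower after treatment and 0 higher, where 8.96% of 8827 genes were lower and 10.7% higher. In 1 fit over all MDSC groups the count was 0, with DESeq2 it was 3, and with the copies added it was 2. Rpl13 (-0.55 ± 0.18, adjusted p = 0.0592) and Rps29 (-0.48) were lower in value without passing, and Rps2 (0.38), Rps27l (0.35), the paralog of Rps27 that p53 is known to induce, and Rpl27 (0.29) were highest. Rpl27 turned to -0.07 with the copies added by sequence and to -0.63 with those added by name. The median was -0.14 and that of all genes -0.01, and it was -0.061 without treated replicate 3, -0.095 without treated replicate 1 and -0.22 with library totals. Treated replicate 4 held 13871 CPM of B cell markers, where the other treated libraries held 139 to 410, and the highest share of member counts of its group. Without it, 3 members were lower and the median was -0.23. The count was 2 without treated replicate 2, and 0 without treated replicate 1 or 3 or any 1 of the 4 untreated libraries. M-MDSC markers (2 of 8 higher, 3 lower) summed to 6419 to 9315 CPM untreated and 3298 to 4743 CPM treated, and macrophage markers (2 of 7 higher, 2 lower) to 854 to 1104 CPM and 363 to 674 CPM, both without overlap. The 1 erythroid marker tested was lower (-6.14). Fibroblast and endothelial markers (1 of 2 higher, median 2.83) went from 25.5 to 38.5 CPM to 129 to 294 CPM, without overlap. The part of these was not tested.

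In M-MDSC from tumor, 0 of 76 members passed with edgeR, against 1.82% higher and 1.06% lower among 8360 genes. At an unadjusted p under 0.05 there were 3 members, and DESeq2 called 1, Rpl13, as lower (adjusted p = 0.0304). The median was -0.21 and that of all genes -0.00054, and edgeR called 1 member as lower without treated replicate 1. The median was -0.12 without treated replicate 2, and also with library totals, and -0.30 without treated replicate 1. Rpl13 was lowest (-0.75 ± 0.22, adjusted p = 0.0938), then Rps29 (-0.55) and Rpl6 (-0.51), and Rps27l (0.24), Rpl36a (0.21) and Rps20 (0.13) were highest. With the copies added by sequence Rps29 turned to 0.05 and Rpl36a to -0.07. M-MDSC markers (1 of 8 lower) summed to 9249 to 12439.7 CPM untreated and 2889 to 5202 CPM treated, and cell cycle genes (0 of 8 called) to 205 to 511 CPM and 627 to 983 CPM, both without overlap. Macrophage markers summed to 3394 to 8421 CPM untreated and 5289 to 29336 CPM treated, with overlap. In every treated library they exceeded the M-MDSC markers. Of 4 epithelial tumor markers 1 was lower, and of 4 fibroblast and endothelial markers 1 was higher, from 21.4 to 74.1 CPM to 121 to 206 CPM over the list. The part of these was not tested. All 4 treatment comparisons had a negative median of the members, but the titles share numbers across the 4 populations, so these signs are not independent of each other. In the same libraries, 10 of 10 IFN-stimulated genes were higher after treatment in 3 of these comparisons, and 5 of 10 in M-MDSC from tumor.

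**Figure D4:**
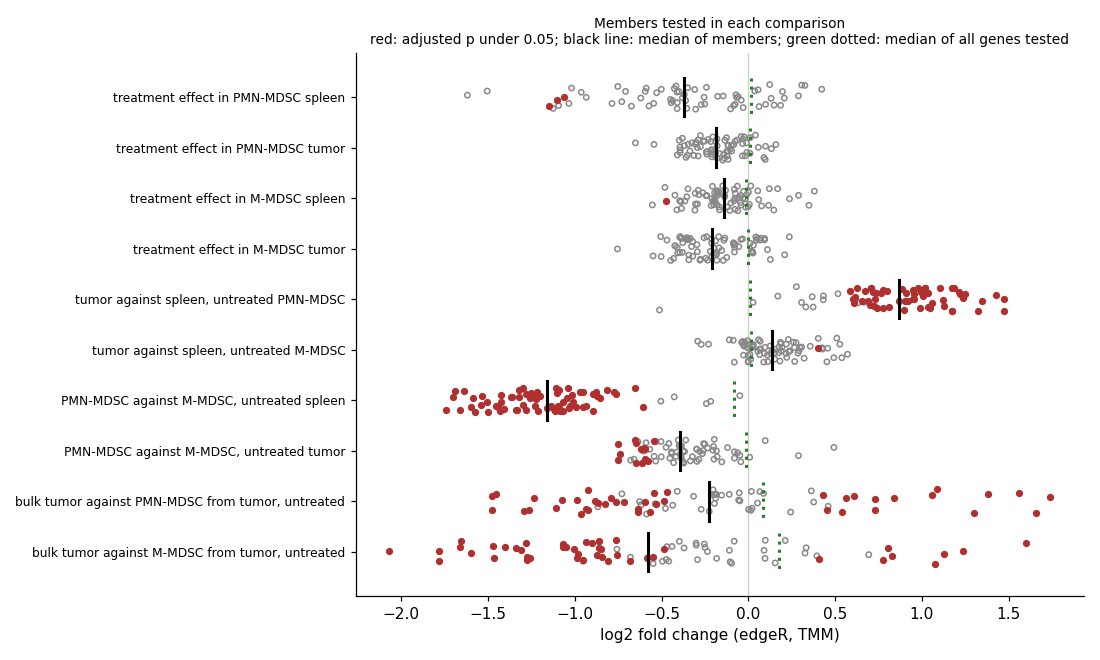
Log2 fold change of every member tested in the 10 comparisons between groups, red where the adjusted p was under 0.05. The black line marks the median of the members and the green dotted line that of all genes tested. The members' median lies at -1.16 for PMN-MDSC against M-MDSC of spleen and at 0.87 for tumor against spleen in PMN-MDSC, and between -0.37 and -0.14 in the 4 treatment comparisons.

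Whether the treatment effect differed between cell types or compartments was tested by interaction terms. In spleen, 2 of 74 members had a lower treatment effect in PMN-MDSC than in M-MDSC and 0 a higher one, against 6.45% and 4.41% of 8417 genes, with a median of -0.19, and 0.02 over all genes. They were the partners Rpl11 (-1.16 ± 0.28, adjusted p = 0.0191) and Rpl5 (-0.79 ± 0.24, adjusted p = 0.0481). In M-MDSC from spleen, Rpl5 held 139.8, 137, 166 and 150.2 CPM untreated and 119, 119, 114 and 139.8 CPM treated. These overlap only through treated replicate 4, the library with many B cell marker counts, and the other treated libraries lay below every untreated one. Rpl11 held 34.8, 39.5, 31.9 and 31.7 CPM and 33.9, 35.5, 30.05 and 42.5 CPM, which overlap with or without that library. Neither gene passed with the counts of the copies added (Rpl11 at -0.72, adjusted p = 0.0650, and Rpl5 at -0.95, adjusted p = 0.0817), where 4 other members did, nor without the filter on low counts (adjusted p = 0.104 and 0.176). The lowest value belonged to Rpl13a (-1.33 ± 0.49, adjusted p = 0.0973), followed by Rpl3 (-1.24 ± 0.42, adjusted p = 0.0751) and Rpl36a (-1.20), which did not pass, and Rpl37a (0.72), Rps24 (0.59) and Rps9 (0.57) were highest. Of the 74 members, 19 averaged under 25 counts in treated PMN-MDSC, Rpl11 (12), Rpl13a (3.67), Rpl36a (3.67) and Rpl37a (22.7) among them. Rpl13a and Rpl36a averaged under 25 in untreated PMN-MDSC too and entered only through M-MDSC, where they were higher, so their values are a description. Single libraries moved the count of 2 to between 1 and 8, with 8 without untreated PMN-MDSC replicate 3, 7 without treated PMN-MDSC replicate 1 and 1 without any other library of the 4 groups except untreated PMN-MDSC replicate 4.

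No member passed in the other 3 interactions with edgeR or DESeq2. Between tumor and spleen in PMN-MDSC, 0 of 71 passed (background 3.17% higher and 0.336% lower among 8047 genes, 7 members at an unadjusted p under 0.05), with Rpl36a (1.69), Rpl15 (1.48) and Rpl11 (1.04) highest and Rplp0 (-0.56), Rpl27 (-0.55) and Rps24 (-0.46) lowest. The first 3 were among 16 members that averaged under 25 counts in treated splenic PMN-MDSC. Rpl36a averaged 3.67 counts there and 19.25 in untreated splenic PMN-MDSC and entered only through tumor, so its value is a description. Between tumor and spleen in M-MDSC, 0 of 76 passed (0.229% higher and 0.561% lower among 8730 genes, 0 members unadjusted), between 0.62 for Rpl36a and -0.55 for Rpl13a. Between PMN-MDSC and M-MDSC in tumor, 0 of 76 passed (0% higher and 0.0239% lower among 8385 genes, 0 members unadjusted), between 0.50 for Rps9 and -0.47 for Rpl21.

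**Figure D5:**
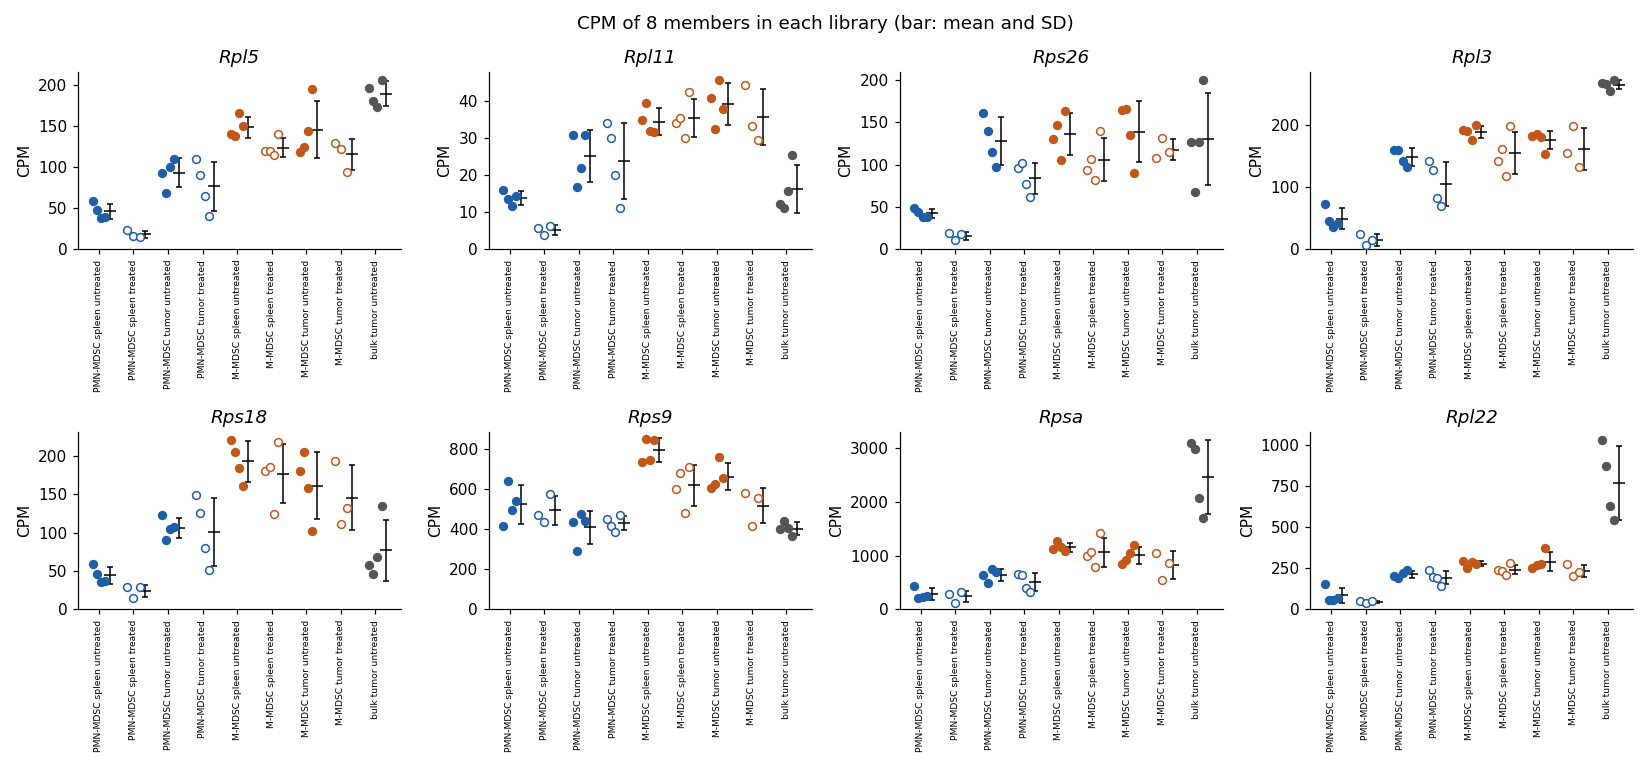
CPM of Rpl5, Rpl11, Rps26, Rpl3, Rps18, Rps9, Rpsa and Rpl22 in each library by group, each panel from 0 (points are libraries, filled for untreated and open for treated, with the mean and SD beside them). Treated splenic PMN-MDSC lie below all untreated ones for Rpl5, Rpl11, Rps26 and Rpl3, and bulk tumor lies above the other groups for Rpsa and Rpl22.

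Bulk tumor was set against each sorted population from tumor to see whether whole tissue, which also holds tumor and stromal cells, carries the same mixture of these transcripts. Against PMN-MDSC, 15 of 77 members tested (19.5%) were higher in bulk tumor and 27 (35.1%) lower, where 36.1% of 11138 genes were higher and 33.3% lower. The share called lower was thus near that of all genes and the share called higher below it. Rps29, Rps27l, Rpl31, Rpl13a and Rpl24 averaged under 25 counts in PMN-MDSC and entered only through bulk tumor, and 1 of these 5, Rpl13a, was called, as higher. The other 41 calls were among 72 members. Against M-MDSC this held for Rpl24 alone, which was not called. With library totals in place of TMM the split was 19 higher and 12 lower, and the median moved from -0.23 to 0.072, beside a median over all genes of 0.09 and 0.38. The median was -0.10 without bulk replicate 2 and -0.39 without bulk replicate 4. Without the filter on low counts it was -0.02, with 19 members higher and 18 lower. Against M-MDSC, 8 of 77 (10.4%) were higher and 36 (46.8%) lower, against 38.2% and 31% of 11022 genes, with a median of -0.58, and 0.17 over all genes. With library totals that median was -0.38, beside 0.36. With the copies added, 34 of the 42 calls against PMN-MDSC were kept and 7 gained, and 37 of the 44 against M-MDSC were kept and 13 gained. Of 31 small subunit members, 13 were lower and 3 higher than in PMN-MDSC, and 19 lower and 1 higher than in M-MDSC. Of 43 large subunit members without the stalk, 13 were lower and 12 higher, and 14 lower and 7 higher. Whether the subunits differed was not tested.

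Rpl12, Rpsa and Rpl22 had the highest values in both comparisons, which share the bulk libraries. Rpl12, which forms the base of the P stalk, held 204, 219, 167 and 153 CPM in bulk tumor and 61.9, 39.01, 33.6 and 48.4 CPM in PMN-MDSC (1.74 ± 0.21, adjusted p = 2.01e-05, and 1.60 ± 0.20 against M-MDSC, adjusted p = 2.24e-05). Rpsa held 3093, 2985, 2076 and 1696 CPM in bulk tumor, above every MDSC library from untreated tumors (1.66 ± 0.25, adjusted p = 9.16e-05, and 1.13 ± 0.25, adjusted p = 0.00172). Rpl22, an RNA-binding protein of the large subunit, held 1029.7, 873, 631 and 544 CPM against 201, 193, 224 and 239 CPM in PMN-MDSC (1.56 ± 0.23, adjusted p = 7.57e-05, and 1.24 ± 0.24 against M-MDSC, adjusted p = 0.000733). For these 3 genes, the lowest bulk library was above the highest library of either MDSC type.

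At the other end, Rps15, of the small subunit's head, held 34.5, 27.04, 41.8 and 56.9 CPM in bulk tumor and 95.2, 81.8, 91.9 and 94.4 CPM in PMN-MDSC (-1.48 ± 0.20, adjusted p = 5.11e-05, and -1.78 ± 0.24 against M-MDSC, adjusted p = 5.00e-05). Rps28 held 4.36, 3.18, 6.53 and 13.1 CPM against 29.1, 27.6, 20.8 and 25.2 CPM in M-MDSC (-2.07 ± 0.38, adjusted p = 0.000504, and -1.45 ± 0.38 against PMN-MDSC, adjusted p = 0.00451). For both genes the highest bulk library was below the lowest library of either MDSC type. Rpl35a was lower than in PMN-MDSC (-1.48 ± 0.22, adjusted p = 9.33e-05) and Rps16 lower than in M-MDSC (-1.78 ± 0.38, adjusted p = 0.00122). Bulk tumor held 5013 to 6781 CPM of 8 epithelial tumor markers, against 129 to 782 CPM in PMN-MDSC and 103 to 339 CPM in M-MDSC from untreated tumors. Fibroblast and endothelial markers were higher than in either MDSC type for 6 of 7 genes, with 1 lower. PMN-MDSC markers were lower for 9 of 9 genes tested against PMN-MDSC and 6 of 6 against M-MDSC, M-MDSC markers for 6 of 6 and 8 of 8, and macrophage markers for 6 of 7 in both, with 1 higher. Cell cycle genes were higher for 8 of 12, with 1 lower, and for 9 of 12. Bulk tissue and sorted cells also differed in how they were handled before lysis, so tissue makeup and handling cannot be told apart.

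The naming rule leaves out 7 ribosomal protein genes. Of those tested, 1 of 4 was lower after treatment in splenic PMN-MDSC, where 5.52% of all genes were. Between tumor and spleen in PMN-MDSC, 2 of 4 were higher and 1 lower, beside 29.4% and 29.7% of all genes. Between PMN-MDSC and M-MDSC, 3 of 6 were lower in spleen and 1 of 6 in tumor, beside 33.4% and 5.73%. Rps3a1 was lower after treatment in splenic PMN-MDSC (-1.24 ± 0.31, adjusted p = 0.0370), higher in PMN-MDSC of tumor than of spleen (0.90 ± 0.19, adjusted p = 0.00193) and lower in PMN-MDSC than in M-MDSC of spleen (-1.10 ± 0.14, adjusted p = 0.000121). Rack1, on the small subunit's head, was higher in tumor PMN-MDSC (1.04 ± 0.25, adjusted p = 0.00522) and lower in splenic PMN-MDSC than in M-MDSC (-1.71 ± 0.23, adjusted p = 0.000177). Fau, which encodes a small subunit protein fused to a ubiquitin-like protein, went the other way between compartments (-0.77 ± 0.23, adjusted p = 0.0151) and did not pass between cell types (0.24 ± 0.17, adjusted p = 0.242).

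Other genes of translation were read from lists. In untreated PMN-MDSC, tumor against spleen, where 29.4% of all genes were higher and 29.7% lower, 6 of 6 elongation factors were higher (median 0.79, Eef1a1 at 1.35), as were 18 of 29 initiation factors (0.85, Eif4a1 at 1.48) and 6 of 9 further genes with TOP mRNAs (0.66, Hnrnpa1 at 1.55), and 0 of these were lower. Mitochondrial ribosomal proteins, which serve a separate ribosome, counted 15 higher and 4 lower of 32 (0.60). Between PMN-MDSC and M-MDSC of spleen, where 33.4% of all genes were lower and 30.9% higher, 5 of 6 elongation factors (-1.03), 20 of 30 initiation factors (-0.77, with 2 higher), 8 of 9 TOP genes (-0.90) and 40 of 50 mitochondrial ribosomal proteins (-1.07, with 1 higher) were lower in PMN-MDSC. In tumor, 0 of 6 elongation factors, 0 of 29 initiation factors and 0 of 40 mitochondrial ribosomal proteins passed between the cell types with edgeR, and 3 of 9 TOP genes were lower, Vim among them (-1.36), beside 5.73% of all genes.

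For M-MDSC between tumor and spleen, 2 of 6 elongation factors and 9 of 30 initiation factors were higher in tumor, and 0 of 9 TOP genes passed, beside 15.7% of all genes higher and 12.7% lower. After treatment in splenic PMN-MDSC, where 6.1% of all genes were higher and 5.52% lower, 0 of 6 elongation factors passed (median -0.49), and 1 of 29 initiation factors (Eif3b, -1.27, adjusted p = 0.0259) and 2 of 9 TOP genes (Hnrnpa1, -1.96, and Nap1l1, -1.16) were lower. Of 18 genes that control translation, Eif2ak2, the kinase PKR that double-stranded RNA activates, was higher (1.87 ± 0.23, adjusted p = 0.00327), and 2 were lower, Ppp1r15a, which directs the removal of phosphate from eIF2, among them (-1.74 ± 0.23, adjusted p = 0.00398). Ppp1r15a was higher in tumor than in spleen PMN-MDSC of untreated mice (3.51 ± 0.25, adjusted p = 3.62e-06). In treated splenic M-MDSC, 1 of 9 TOP genes was lower, Pabpc1 (-0.60, adjusted p = 0.0123), with 3 initiation factors higher and 2 lower of 30, shares near those of all genes (10.7% and 8.96%).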

How the data were processed

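The authors deposited 1 table of raw fragment counts per gene with no normalization. Per the methods and the submitters' processing notes, reads were mapped to the mouse genome (GRCm38, mm10) and to rRNA with ContextMap and BWA, and counted by strand with featureCounts (Subread 1.4.6-p3) on Gencode v16. The libraries were rRNA-depleted and amplified in 13 PCR cycles. Columns were assigned to groups from their names, which give cell type, compartment and treatment. Of 35 libraries, 1 with 10 counts was left out (minimum 1000).

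Symbols, positions and exon lengths came from GENCODE M21 (GRCm38), which gave both for 53274 identifiers. CPM and FPKM were computed here from the deposited counts. Rows that resemble a member were found with BLAST+ 2.17.0. Start windows came from the RefSeq table of GRCm38.p6.

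Each comparison was fitted on its own groups with edgeR 4.0.16 (R 4.3.3, limma 3.58.1): TMM, robust quasi-likelihood F-test, two-sided, on genes averaging 25 counts or more, Benjamini-Hochberg over all genes tested, called at an adjusted p under 0.05. Differences between effects were interaction terms. The code was tested on simulated data. Alternatives were DESeq2 1.42.0, RLE factors, no filter, library totals, TMM without the members, the study's thresholds (adjusted p under 0.001 and at least 2-fold), addition of pseudogene counts, 1 fit over all MDSC groups, and each library left out. The 48 pairs of libraries within groups had a chi-square per degree of freedom of 6.19 to 49.5, so none was counted as a copy.

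Named were, per comparison, the 3 members with the highest and the 3 with the lowest log2 fold change among those tested, the 5 highest and 5 lowest by FPKM, and a fixed set of members known for their roles. Results for some genes and alleles are not reported here. The members and lists were chosen with earlier results of these data known.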

Additional observations from a re-analysis of the deposited data

Results flagged for a closer look

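Samples that stood apart from their group were looked for in 140 sets of 4 libraries, of which 10 held 1, where chance gives about 5% of sets. In untreated PMN-MDSC from spleen, replicate 1 held 265 CPM of Rplp1 (others 126 to 148), 153 CPM of Rpl22 (others 57.6 to 66.8) and 93.9 CPM of Rps4x (others 40.7 to 48.8). Replicate 2 of the same group held 7.47 CPM of Rpl13a (others 3.45 to 4.07). In untreated M-MDSC from tumor, replicate 4, the smallest library with 793070 counts, had a module level of 6.03 (others 6.34 to 6.38) and a ratio of large to small subunit CPM of 1.69 (others 1.49 to 1.52). In treated M-MDSC from spleen, replicate 3 had a ratio of 1.56 (others 1.48 to 1.49), 845 CPM of Rplp0 (others 1118 to 1155) and 296 CPM of Rplp2 (others 419 to 429). In bulk tumor, replicate 1 held 907 CPM of Rplp0 (others 739 to 766).

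The treatment effect in spleen differed between PMN-MDSC and M-MDSC for Rpl5 (-0.79, adjusted p = 0.0481) and Rpl11 (-1.16, adjusted p = 0.0191) by the interaction term of edgeR. Over 4 other settings, the adjusted p ranged from 0.0121 to 0.176 for Rpl5 and from 0.00930 to 0.104 for Rpl11, and each passed with DESeq2 and with RLE factors.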

How the results depend on the processing

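Most directions held, whereas counts of calls near the background moved with many settings. Of 1529 values of 89 named results under an alternative, 1389 kept their sign and side of the threshold, 27 values of 11 results that passed in neither setting changed sign, 80 lost the call and 33 gained one. Of 242 values of the members' medians, 8 changed sign: 2 with library totals and 6 with 1 library left out in 2 interactions, PMN-MDSC minus M-MDSC in tumor (-0.073 to 0.18) and tumor minus spleen in M-MDSC (-0.18 to 0.0014). In comparisons with splenic PMN-MDSC, up to 13 of 80 members averaged under the 25 counts needed for a test.

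Members lower after treatment in splenic PMN-MDSC (3) numbered 8 with DESeq2, 7 without the filter, 9 with library totals, 0 at the study's thresholds, 15 in 1 fit over all MDSC groups, and 0 to 6 with 1 library left out. In treated splenic M-MDSC the count of 1 became 3 with DESeq2, 3 with library totals, 0 at the study's thresholds, 2 with the copies added, 0 in 1 fit, and 0 to 3 with 1 library left out. In treated PMN-MDSC and M-MDSC from tumor the counts of 0 became 1 each with DESeq2, and 0 to 1 in M-MDSC with 1 library left out. For tumor against spleen in PMN-MDSC, 57 became 9 at the study's thresholds. In M-MDSC, 1 became 4 without the filter, 0 with library totals, 0 at the study's thresholds, 2 with the copies added, 0 in 1 fit, and 0 to 1 with 1 library left out, and the median of 0.13 became -0.12 with library totals. For PMN-MDSC against M-MDSC of spleen, 70 became 35 at the study's thresholds, and the median -1.53 with library totals. In tumor, 13 became 22 with DESeq2, 20 without the filter, 0 at the study's thresholds, 5 in 1 fit, and 2 to 23 with 1 library left out. For bulk tumor against PMN-MDSC, 15 higher became 6 at the study's thresholds, 27 lower became 12 with library totals and 2 at those thresholds, and the median became 0.072 with library totals. Against M-MDSC, 8 higher became 2 and 36 lower became 13 at the study's thresholds. For PMN-MDSC minus M-MDSC in spleen, 2 became 5 with DESeq2, 4 with the copies added, and 1 to 8 with 1 library left out, over which the median was -0.46 to -0.045. For tumor minus spleen in PMN-MDSC, 0 became 0 to 3 with 1 library left out, with 3 without treated splenic replicate 1. The study's thresholds act by a stricter rule, and the cause of the other changes was not tested.

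Library totals moved the median of all genes by over 0.1, to -0.28 for treatment in splenic PMN-MDSC, 0.13 and -0.24 for tumor against spleen in PMN-MDSC and M-MDSC, -0.45 for PMN-MDSC against M-MDSC of spleen, and 0.38 and 0.36 for bulk tumor against PMN-MDSC and M-MDSC, and the members' changes are to be read relative to it. The module level of untreated and treated splenic PMN-MDSC moved by more than 1 SD with TMM factors, to 5.26 and 4.83. No paired analysis was possible from column names alone, because they carry no mouse number, and the column order was not used to assign one. The groups of the columns run in the same order as those of the titles, so pairing by order could have been tried. Whether such pairing would change the calls between cell types, between compartments or against bulk tumor was not tested. The addition of copies by sequence was chosen after seeing the data.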
